A study of Rattus norvegicus with 99 samples.

Results

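Myl7, Myl4, Bmp10 and Sln are 4 genes that adult rat hearts use mainly in the atria, and they were followed here through RNA-seq of ventricular tissue. The genes were chosen by name, so that 4 of the 17337 genes in the deposited table (gene identifiers 289759 for Myl7, 688228 for Myl4, 500245 for Bmp10 and 367086 for Sln) are described across all 99 libraries. They were picked with it known that Myl7 was very high in 1 library, the RV of PAB-F replicate 3, so the values of that contrast are given as a description and without a test. The study asked how the ventricles of rats respond to a slowly growing pressure load, and each of 33 hearts was divided into the LV, the septum (Spt) and the RV, giving 3 libraries an animal. All animals were male F1 rats bred from Lewis males and Wistar Kyoto females.

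Banding of the pulmonary artery (PAB) loads the RV and banding of the aorta (AOB) loads the LV, and sham-operated animals served as controls. The clips did not constrict the vessel when placed, so the load rose as the animals grew. Compensated hypertrophy was sampled 7 weeks after surgery, at 11 weeks of age, in 7 Sham-H, 7 PAB-H and 7 AOB-H animals. Right heart failure was sampled 21 weeks after surgery, at 27 weeks of age, in 3 PAB-F animals with 2 Sham-RF controls. Left heart failure was sampled 24 weeks after surgery, at 30 weeks of age, in 4 AOB-F animals with 3 Sham-LF controls. Ages are given as labelled, and differ from those in the methods of the study. No atrial library was analysed here, so the levels cannot be set against atrial tissue of these animals.

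Myl7 and Myl4 encode the atrial regulatory and essential myosin light chains, the counterparts of the ventricular chains made from Myl2 and Myl3. Sln encodes sarcolipin, a small membrane protein that inhibits the sarcoplasmic reticulum calcium pump and is abundant in atria, where ventricles mainly use phospholamban. Bmp10 encodes a secreted growth factor of the BMP family that acts through the receptor ALK1 (Acvrl1) with endoglin, and in the adult heart it is made mostly by the right atrium. Of these genes, Myl4 in particular is active in the embryonic ventricle and is known to return in hypertrophied ventricles. A ventricular sample can therefore hold such transcripts through a piece of atrial wall left on the tissue or through ventricular muscle cells that make them, and in bulk tissue the number of such cells and the RNA made by each cannot be told apart.

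The libraries held 12.1 to 24.2 M counts (M for 1e06, median 17.4 M). Each level is in CPM, that is, relative to library size after TMM scaling of all 99 libraries, so that 1 CPM corresponds to about 17.4 counts in a library of median depth, and fold changes are on the log2 scale. Chamber labels were checked by setting the RV to LV difference of each animal against the mean of the others over all genes that passed the filter. In 30 animals the correlation lay between -0.01 and 0.79, and in Sham-H replicate 6, PAB-H replicate 2 and AOB-H replicate 1 it lay between -0.67 and -0.62, so the ventricle difference of those 3 animals ran opposite to the rest. Results that rest on the libraries labelled LV of Sham-H replicate 6 and PAB-H replicate 2 are therefore named below. The 16 libraries of high Myl7 described below held 13.8 to 20.5 M counts, within the range of the others.

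The 4 genes were low in most of the 99 libraries and far higher in a few, which some groups held and others did not, and in the Sham-H LV most libraries were above the chamber median. Compared per length, the median Myl7 level in the sham LV was 36.3 FPKM against 12840 FPKM for Myl2, its ventricular counterpart. The corresponding medians were 10.0 FPKM for Myl4, 13.9 FPKM for Sln and 0.0451 FPKM for Bmp10. The highest single values over all libraries of a chamber were 1776 FPKM of Myl7 in the LV, 428 FPKM in the septum and 1960 FPKM in the RV.

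**Figure D1:**
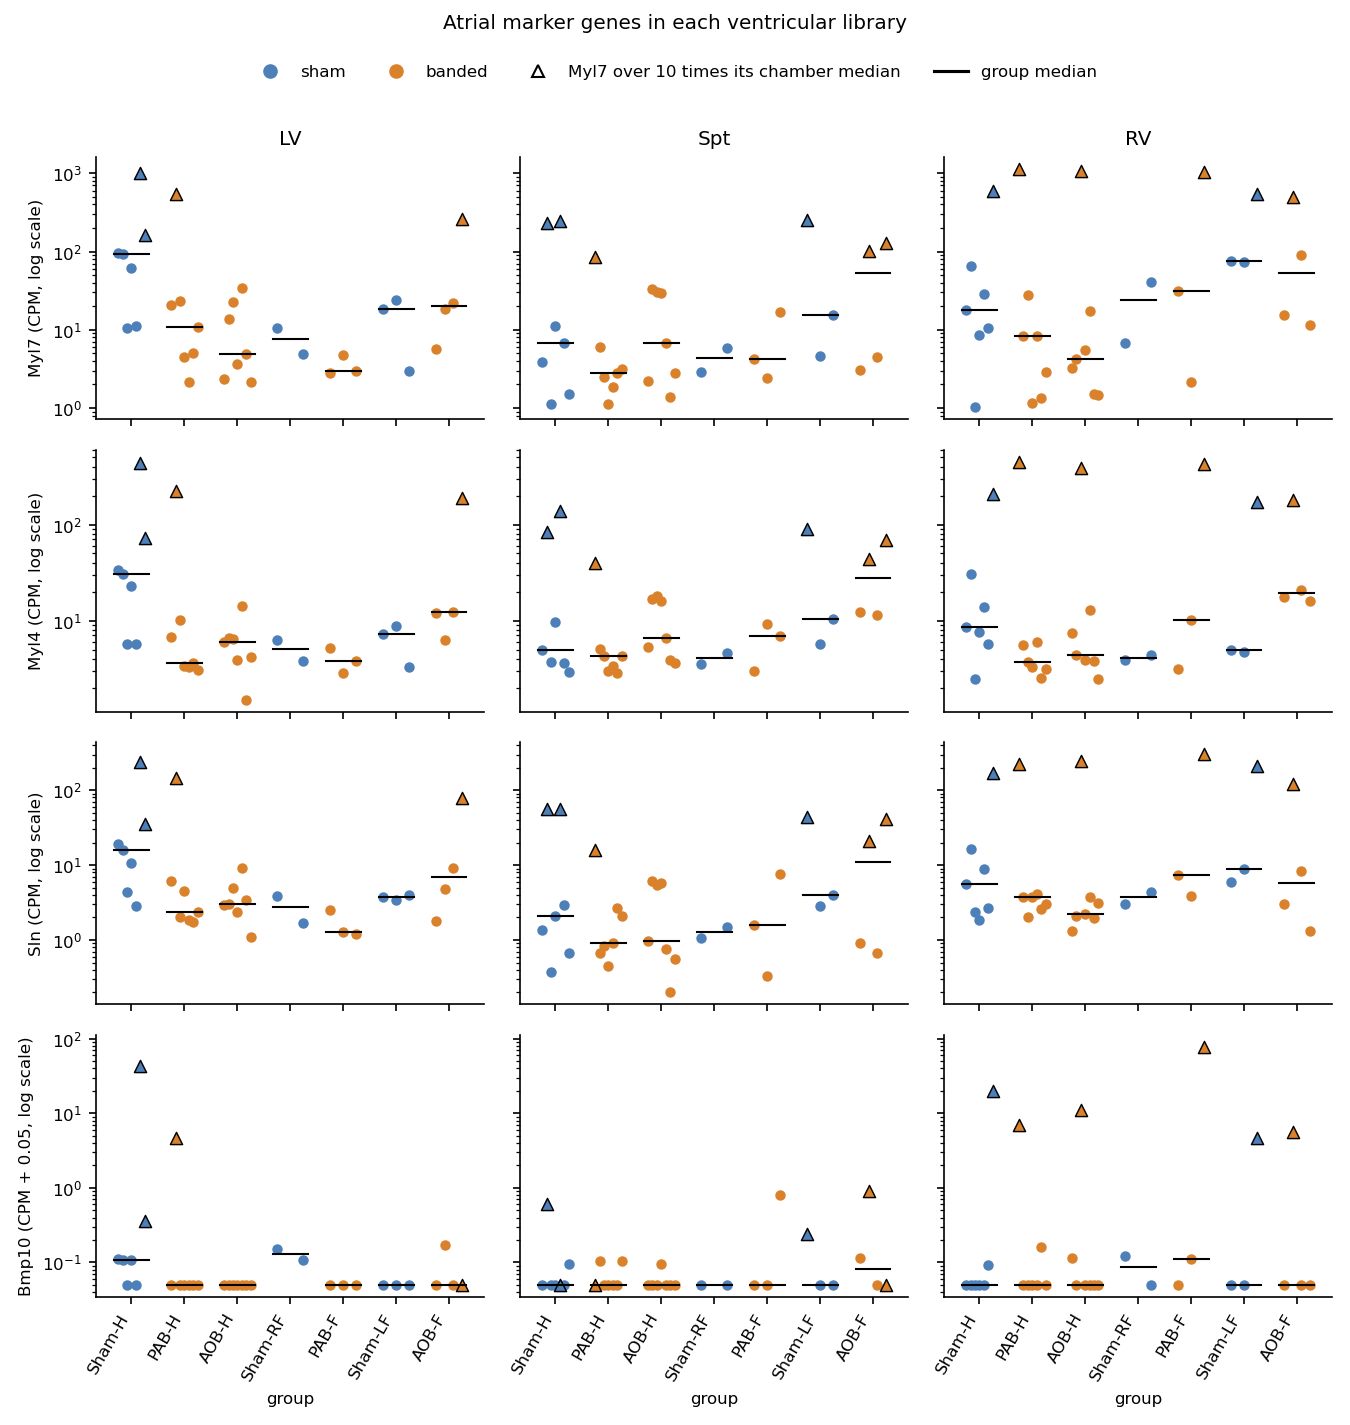
CPM of Myl7, Myl4, Sln and Bmp10 (rows, log axes, with 0.05 added for Bmp10) in each of the 99 libraries by chamber (columns) and group (x axis), with sham animals in blue, banded animals in orange, the group median as a bar, and triangles for the 16 libraries whose Myl7 was over 10 times the median of their chamber. Most triangles lie far above the other libraries of their group for Myl7, Myl4 and Sln (Sham-H replicate 7 LV is closer, at 163 CPM of Myl7 against 95.2 CPM in replicate 1), and they occur in sham and banded animals alike, while Bmp10 stays near 0 in some of them.

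In the LV, the atrial regulatory light chain gene Myl7 spanned 10.4 to 1023 CPM in the 7 Sham-H animals (median 94.4 CPM). It spanned 2.13 to 552 CPM in PAB-H (median 10.8 CPM). It spanned 2.12 to 34.3 CPM in AOB-H (median 4.92 CPM). The young shams thus held the highest LV median, with 2 of their 7 libraries (replicates 6 and 7) above 100 CPM, and their range overlapped that of both banded groups. In the older animals, LV Myl7 was at 2.79, 4.71 and 2.98 CPM in PAB-F replicates 1 to 3, against 10.5 and 4.94 CPM in Sham-RF replicates 1 and 2. LV Myl7 was at 5.68, 18.2, 21.7 and 264 CPM in AOB-F replicates 1 to 4, against 18.2, 24.2 and 3.00 CPM in Sham-LF replicates 1 to 3. A single AOB-F animal, replicate 4, lay above its shams, and the 3 PAB-F values lay below both Sham-RF values, a separation seen for 18.5% of the 11703 genes tested in that comparison of 3 with 2 libraries. Bmp10 was separated there too, but at no more than 3 counts in any of the 5 libraries.

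In the septum, Myl7 spanned 1.13 to 243 CPM in Sham-H (median 6.86 CPM). It spanned 1.13 to 84.5 CPM in PAB-H (median 2.84 CPM) and 1.40 to 33.7 CPM in AOB-H (median 6.72 CPM). These septal ranges overlapped, and the high values were those of Sham-H replicates 2 and 5 and PAB-H replicate 1. Septal Myl7 was at 4.26, 2.44 and 16.8 CPM in PAB-F, against 2.90 and 5.88 CPM in Sham-RF. It was at 3.07, 102, 4.48 and 128 CPM in AOB-F, against 251, 4.67 and 15.5 CPM in Sham-LF. Of the AOB-F animals, replicates 2 and 4 were high, but the highest value of that comparison belonged to a sham, Sham-LF replicate 1.

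In the RV, Myl7 spanned 1.02 to 590 CPM in Sham-H (median 17.9 CPM), with replicate 7 highest. It spanned 1.15 to 1130 CPM in PAB-H (median 8.31 CPM), with replicate 1 highest, and 1.45 to 1075 CPM in AOB-H (median 4.17 CPM), with replicate 3 highest. Each young group thus had 1 RV library at 590 CPM or more and 6 below 100 CPM. In the failing RV, Myl7 was at 31.4, 2.12 and 1039 CPM in PAB-F replicates 1 to 3, against 6.69 and 40.7 CPM in Sham-RF. In AOB-F it was at 15.4, 504, 90.7 and 11.4 CPM, against 76.2, 72.5 and 551 CPM in Sham-LF. Except in Sham-RF, each older RV group also contained 1 library at 504 CPM or more.

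Myl4, the atrial essential light chain, followed Myl7 at about the same libraries but over a narrower range. In the LV it spanned 5.66 to 436 CPM in Sham-H (median 30.5 CPM), 3.07 to 225 CPM in PAB-H (median 3.62 CPM) and 1.49 to 14.2 CPM in AOB-H (median 5.99 CPM). LV Myl4 was at 5.15, 2.83 and 3.81 CPM in PAB-F against 6.29 and 3.79 CPM in Sham-RF. In AOB-F it was at 12.0, 6.22, 12.4 and 187 CPM, against 7.30, 8.83 and 3.29 CPM in Sham-LF. The LV of 3 AOB-F animals, replicates 1, 3 and 4, thus lay above the 3 Sham-LF values, and replicate 2 lay within them.

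Septal Myl4 spanned 2.95 to 137 CPM in Sham-H (median 4.92 CPM), 2.84 to 39.4 CPM in PAB-H (median 4.24 CPM) and 3.59 to 18.1 CPM in AOB-H (median 6.52 CPM). It was at 2.97, 9.13 and 6.91 CPM in PAB-F against 3.49 and 4.61 CPM in Sham-RF. In AOB-F it was at 12.4, 43.7, 11.4 and 69.3 CPM, against 90.3, 5.72 and 10.5 CPM in Sham-LF. All 4 AOB-F septa were above Sham-LF replicates 2 and 3 and below Sham-LF replicate 1. In the RV, Myl4 spanned 2.48 to 210 CPM in Sham-H (median 8.56 CPM), 2.53 to 452 CPM in PAB-H (median 3.75 CPM) and 2.47 to 388 CPM in AOB-H (median 4.43 CPM). RV Myl4 was at 3.13, 10.1 and 425 CPM in PAB-F against 3.85 and 4.36 CPM in Sham-RF. In the AOB-F RV it was at 17.7, 180, 20.9 and 16.0 CPM, against 4.96, 4.77 and 173 CPM in Sham-LF. There the 4 AOB-F values lay above 2 of the 3 shams, and the third sham, replicate 3, was the sham library that was also high in Myl7.

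Sln, encoding sarcolipin, was the lowest of the 3 muscle genes outside the high libraries. In the LV it spanned 2.83 to 239 CPM in Sham-H (median 16.1 CPM), 1.72 to 148 CPM in PAB-H (median 2.40 CPM) and 1.11 to 9.25 CPM in AOB-H (median 3.01 CPM). LV Sln was at 2.50, 1.28 and 1.21 CPM in PAB-F and at 3.92 and 1.66 CPM in Sham-RF. It was at 1.82, 4.82, 9.21 and 79.8 CPM in AOB-F and at 3.79, 3.41 and 3.99 CPM in Sham-LF. AOB-F replicate 1, whose Myl4 was above every Sham-LF value, had the lowest Sln of that comparison.

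In the septum Sln spanned 0.378 to 57.0 CPM in Sham-H, 0.453 to 16.0 CPM in PAB-H and 0.200 to 6.20 CPM in AOB-H, with medians of 2.06, 0.912 and 0.979 CPM. Septal Sln was at 1.60, 0.332 and 7.53 CPM in PAB-F, 1.07 and 1.47 CPM in Sham-RF, 0.915, 21.2, 0.669 and 41.3 CPM in AOB-F, and 44.3, 2.82 and 4.00 CPM in Sham-LF. The septal groups overlapped in each of the 4 banding comparisons. In the RV, Sln spanned 1.88 to 169 CPM in Sham-H (median 5.55 CPM), 2.02 to 224 CPM in PAB-H (median 3.77 CPM) and 1.33 to 249 CPM in AOB-H (median 2.24 CPM). RV Sln was at 7.38, 3.82 and 303 CPM in PAB-F against 3.05 and 4.36 CPM in Sham-RF. In AOB-F it was at 3.01, 120, 8.44 and 1.33 CPM, against 6.03, 8.96 and 211 CPM in Sham-LF. As for Myl7, 1 library of each of these RV groups but Sham-RF stood more than 100 CPM high.

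Ordered by their medians, the 21 groups of libraries ran from 94.4 CPM (Sham-H LV) to 2.84 CPM (PAB-H Spt) for Myl7, from 30.5 CPM (Sham-H LV) to 3.62 CPM (PAB-H LV) for Myl4, and from 16.1 CPM (Sham-H LV) to 0.912 CPM (PAB-H Spt) for Sln. For each of the 3 genes, the ranges of neighbouring groups in that order overlapped in 20 of 20 pairs. No step between neighbouring groups exceeded the spread within them.

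A library was taken to stand apart where its Myl7 level exceeded 10 times the median of the 33 libraries of its chamber (11.1 CPM in the LV, 4.67 CPM in the septum and 15.4 CPM in the RV). By this rule 16 of 99 libraries stood apart, 4 of the LV, 6 of the septum and 6 of the RV. They made up 7 of 36 sham libraries (19.4%) and 9 of 63 banded libraries (14.3%). The lowest library inside the limit was Sham-H replicate 7 LV, at 14.8 times the median, and the highest outside it was Sham-H replicate 1 LV, at 8.61 times. All 3 library series that the sample numbers give contained such libraries, 2 of 12 in the first, 7 of 48 in the second and 7 of 39 in the third.

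The 16 libraries came from 12 animals, of which 8 had 1 chamber apart and 4 had 2, and in no animal did all 3 chambers stand apart. In PAB-F replicate 3 the RV held 1039 CPM of Myl7 while its LV held 2.98 and its septum 16.8 CPM. In AOB-H replicate 3 the RV held 1075 CPM, against 22.4 CPM in the LV and 30.1 CPM in the septum. In Sham-H replicate 6 the library labelled LV held 1023 CPM, against 6.86 CPM in the septum and 10.5 CPM in the RV. The other chambers of these 3 hearts were thus more than 10 times lower. High levels were shared by a pair of chambers in PAB-H replicate 1 (RV 1130 CPM, septum 84.5 CPM), Sham-H replicate 7 (RV 590 CPM, LV 163 CPM), AOB-F replicate 2 (RV 504 CPM, septum 102 CPM) and AOB-F replicate 4 (LV 264 CPM, septum 128 CPM). Septum replicates 1 and 2 of AOB-F are exchanged in a sample sheet of the study, and the labels were followed here, so which of those animals the 102 CPM belongs to is uncertain and so is the tally of animals.

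Within these 16 libraries Myl7, Myl4, Sln and Mybphl kept a nearly fixed proportion, although Myl7 itself ranged from 84.5 to 1130 CPM. Mybphl, an atrial myosin-binding protein gene that the choice of members and of libraries did not use, stood at 2.81 to 5.03 counts for each 100 of Myl7 (median 4.07). Myl4 stood at 31.4 to 70.7 per 100 of Myl7 (median 40.9), and at 31.4 to 40.9 in the 6 RV libraries. Sln stood at 17.7 to 38.2 per 100 of Myl7 (median 23.6). The highest ratio was thus 1.79 times the lowest for Mybphl, 2.25 times for Myl4 and 2.17 times for Sln. In the other 83 libraries the same ratios were far more scattered, from 6.51 to 477 for Myl4 and from 7.25 to 328 for Sln. The highest of these, 477 and 328, rest on 35 and 18 counts of Myl7, and the lowest, 6.51 and 7.25, on 998 and 579. The 16 libraries were chosen by high Myl7, the denominator, so the contrast in scatter is not independent of that choice. These ratios compare genes by counts and not per length, so only their change between libraries is read.

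**Figure D2:**
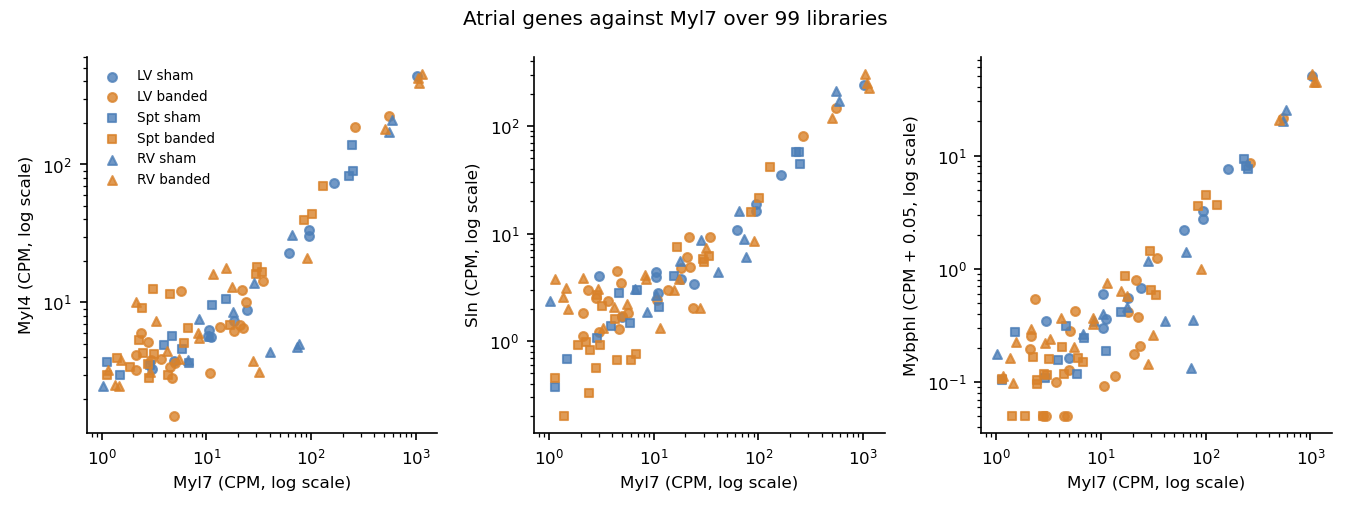
Myl4, Sln and Mybphl against Myl7 in each of the 99 libraries (CPM, log axes, with 0.05 added for Mybphl), by chamber (marker shape) and sham or banded animal (blue or orange). Above about 100 CPM of Myl7 the points form 1 narrow band for each gene, with 31.4 to 70.7 of Myl4 per 100 of Myl7, and below it they spread out.

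Mybphl gave a marker outside the members for the same distinction. It was at 1 CPM or more in 23 libraries, among them the 16 above, in which it was at 3.51 CPM or higher. In the remaining 76 libraries, Myl7 lay between 1.02 and 90.7 CPM (median 5.26), Myl4 between 1.49 and 20.9 CPM (median 4.94) and Sln between 0.200 and 9.21 CPM (median 2.54). The 23 libraries were unevenly spread over the young LV groups, since 5 of the 7 Sham-H LV libraries held 1 CPM or more of Mybphl. Across chambers, 12 of 36 sham libraries and 11 of 63 banded libraries did.

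Bmp10, the right-atrial growth factor gene, differed among the high libraries both by chamber and by Myl7 level. All high libraries with 504 CPM or more of Myl7, from the RV and LV, held 4.58 CPM or more of Bmp10. All those with 264 CPM or less, from the septum and LV, held 0.868 CPM or less. Every high RV library exceeded every high septum in Myl7, so chamber and Myl7 level cannot be told apart between RV and septum. Bmp10 had no count in 70 of the 99 libraries and at most 3 counts in 87, and 0 counts allow a level of up to 0.124 to 0.249 CPM, depending on the library. This floor covers counting error only. In the RV, Bmp10 reached 1 CPM or more in 6 of 6 libraries that stood apart and in none of the other 27, where it was at most 0.112 CPM. Its levels there were 78.5 CPM in PAB-F replicate 3, 20.0 CPM in Sham-H replicate 7, 11.1 CPM in AOB-H replicate 3, 6.94 CPM in PAB-H replicate 1, 5.55 CPM in AOB-F replicate 2 and 4.58 CPM in Sham-LF replicate 3. In the septum Bmp10 stayed below 1 CPM in all 33 libraries, and its highest level was 0.868 CPM in AOB-F replicate 2, where Myl7 was at 102 CPM. The septum of PAB-F replicate 3, with 16.8 CPM of Myl7, held 0.747 CPM of Bmp10 from 12 counts.

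In the LV, Bmp10 was above 1 CPM in only 2 of the 4 libraries that stood apart. These were the libraries labelled LV of Sham-H replicate 6, at 42.9 CPM, and of PAB-H replicate 2, at 4.59 CPM, which belong to the animals whose ventricle difference ran opposite to the others. The LV of Sham-H replicate 7 had 0.308 CPM, from 6 counts, and the LV of AOB-F replicate 4 had 0 counts of Bmp10 at 264 CPM of Myl7. Without the animals of opposite ventricle difference, no LV library reached 1 CPM of Bmp10. The libraries so left out were also the highest of the LV in Myl7, at 1023 and 552 CPM, and no other LV library exceeded 264 CPM. Whether their Bmp10 went with the Myl7 level or with the chamber label was not tested. Unlike Mybphl, Bmp10 kept no fixed proportion to Myl7 even among the 6 high RV libraries, where it stood at 0.614 to 7.55 per 100 of Myl7, a 12.3-fold range.

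**Figure D3:**
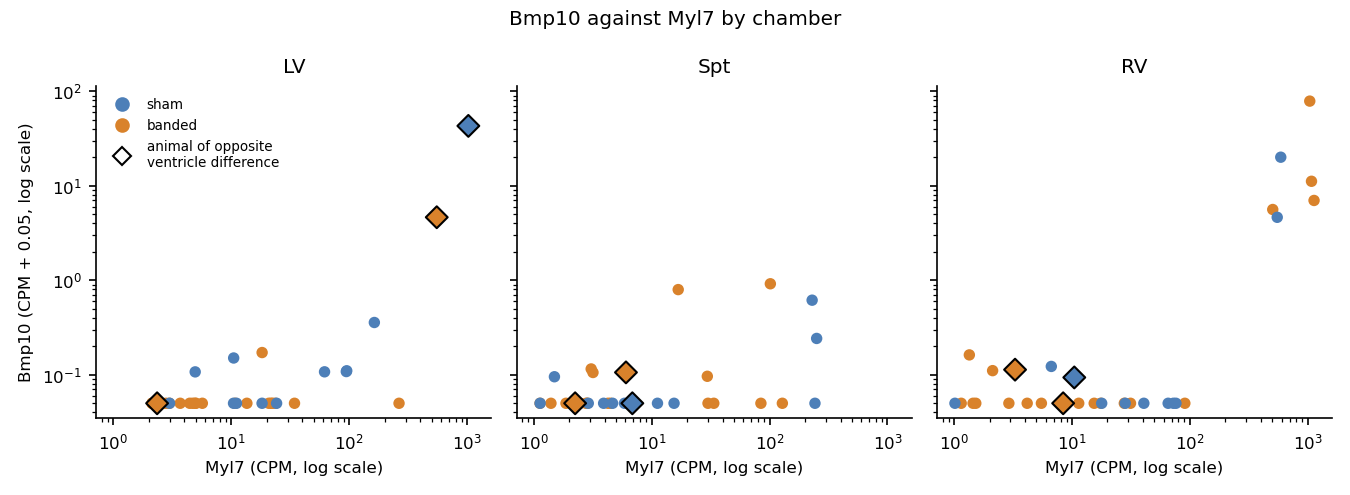
Bmp10 (CPM + 0.05, log axis) against Myl7 (CPM, log axis) in the 33 libraries of each chamber, with sham animals in blue, banded animals in orange, and diamonds for the 3 animals whose difference between ventricles ran opposite to the others. In the RV the 6 libraries at 504 CPM or more of Myl7 held Bmp10, in the septum none reached 1 CPM, and in the LV the only libraries that did are diamonds. Those LV libraries were also the highest of the LV in Myl7, at 1023 and 552 CPM.

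Of 15 other genes known for higher atrial than ventricular levels, fixed as a list with the members, Mybphl alone stood out in the 16 libraries in every chamber. Nppa stood out in the LV and RV but not in the septum. The median Mybphl level was 59.2-fold higher in the LV libraries that stood apart than in the other LV libraries, 56.5-fold in the septum and 126-fold in the RV. The corresponding ratios for Nppa, encoding atrial natriuretic peptide, were 3.65, 1.70 and 10.7. The other 13 genes, among them the potassium channel genes Kcna5 and Kcnj3 and the connexin gene Gja5, had ratios between 0.406 and 2.12, and the highest was that of Stard10 in the RV.

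Ventricular genes were at like levels in these libraries and the rest. The median of Myl2 in the libraries that stood apart was 1.02, 1.04 and 1.02 times that of the others in the LV, septum and RV. The 5 ventricular genes (Myl2, Myl3, Irx4, Hey2 and Myh7) summed to 23454 to 42510 CPM in the 16 libraries and 20015 to 38061 CPM in the other 83. Among markers of further tissues, the sum of the 7 sinus node and conduction genes was 13.7 to 49.6 CPM (median 26.1) against 12.4 to 46.2 CPM (median 25.8). Of its genes Isl1 was at or near 0 in both sets, and Shox2 had medians of 0.961 and 0.422 CPM. The mesothelial genes (4 of 6 in the table) summed to 21.4 to 149 CPM (median 53.7) against 19.3 to 119 CPM (median 30.4), with Krt19 at medians of 6.11 and 1.47 CPM and Upk1b at 4.18 and 0.784 CPM, and within the LV the median of the mesothelial gene Msln was 7.00-fold higher in the 4 libraries that stood apart. The adipocyte genes (4 of 5 in the table) summed to 0.107 to 9.00 CPM (median 1.99) against 0 to 13.4 CPM (median 0.363), and the 3 lung genes to 0 to 2.36 CPM against 0 to 5.71 CPM. The valve and tendon-like genes summed to 6.69 to 21.0 CPM (median 12.0) against 2.85 to 16.6 CPM (median 6.04), with Fmod at medians of 10.9 and 4.64 CPM. Smooth muscle genes summed to 105 to 230 CPM against 90.2 to 342 CPM, and skeletal muscle genes to 3.20 to 56.9 CPM against 1.67 to 162 CPM. Mesothelial, adipocyte and valve genes thus had higher medians in the 16 libraries, with overlapping ranges. Their part in the levels of the members was not tested.

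Myl7 also occurred at intermediate levels with little Mybphl. In 8 libraries Myl7 was above 25 CPM with Mybphl under 1 CPM, a limit set after the values were seen, and 6 of these were RV libraries. Their Myl7 levels were 90.7 CPM in AOB-F replicate 3, 76.2 and 72.5 CPM in Sham-LF replicates 1 and 2, 40.7 CPM in Sham-RF replicate 2, 31.4 CPM in PAB-F replicate 1 and 27.8 CPM in PAB-H replicate 3. In those of the 2 Sham-LF animals Myl4 was only 4.96 and 4.77 CPM, within the range of the low libraries. Sham and banded, and mostly older, animals were among them, and all 6 belonged to the second library series. Older shams exceeded young ones in RV Myl7 by 2.32 ± 1.01 on the log2 scale once libraries with 1 CPM or more of Mybphl were left out, with an adjusted p of 0.237 by edgeR's quasi-likelihood test. The part of the series and of age in these levels was not tested.

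In the 11 banding comparisons tested, which leave out the RV of PAB-F, no member passed the test across animals. With edgeR's quasi-likelihood test, 0 of the 4 members were differentially expressed (adjusted p under 0.05, Benjamini-Hochberg) in the LV of PAB-H or AOB-H, where 0% of the 11703 genes tested were. The same count was 0 of 4 in the LV of PAB-F (0% of genes) and of AOB-F (0.837% of genes). It was 0 of 4 in the septum of PAB-H, AOB-H and PAB-F (0% of 11624 genes each) and of AOB-F (0.232%), and 0 of 4 in the RV of PAB-H, AOB-H and AOB-F (0% of 11734 genes each). At an unadjusted p under 0.05, all 3 of Myl7, Myl4 and Sln counted in the AOB-H LV (4.54% of all genes), Myl4 and Sln in the septum of PAB-H (4.44%) and of AOB-H (15.9%), and 0 of 3 in the other 8 comparisons. DESeq2 called 0 members in the LV and septum, and in the RV it gave no adjusted p for any of the 4. Counted by ranges that did not overlap, the members gave 0 of 4 in the young LV (0.0171% of genes in PAB-H, 0.00854% in AOB-H), 2 of 4 in the PAB-F LV (18.5%), and 0 of 4 in the AOB-F LV (11.9%), the septum of PAB-H (0.043%), AOB-H (0.0258%), PAB-F (42.7%) and AOB-F (9.8%), and the RV of PAB-H (0.00852%), AOB-H (0%) and AOB-F (10.2%). All 4 members passed the low-count filter in each chamber, Bmp10 only through the few libraries described above, so no fold change or unadjusted p is given for it.

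In the LV, AOB-H against Sham-H gave log2 fold changes of -4.17 ± 1.20 (SE) for Myl7, -3.87 ± 1.09 for Myl4 and -3.63 ± 1.08 for Sln, with edgeR adjusted p of 0.765, 0.764 and 0.765 (n = 7 and 7). The mean Myl7 level was 11.9 ± 12.4 CPM (SD) in AOB-H and 208 ± 363 CPM in Sham-H. Without Sham-H replicate 6 the changes were -2.63, -2.25 and -1.94, and without all libraries over 10 times the chamber median of Myl7 they were -2.21, -1.70 and -1.46. Without libraries holding 1 CPM or more of Mybphl they were -0.41 ± 0.85, -0.27 ± 0.49 and -0.28 ± 0.54, with 6 AOB-H and 2 Sham-H libraries left. Because Mybphl goes with the members across libraries, leaving out libraries by it takes out high members by construction, here and in each such value below, and a smaller difference does not show where the difference came from. Sham-H replicate 6 is an animal of opposite ventricle difference, and without the 3 such animals the changes were -2.45 ± 0.83, -2.24 ± 0.70 and -1.89 ± 0.66, with an edgeR adjusted p of 0.640 for each. The changes also varied by library series, each with few animals a group. They were -3.57, -2.33 and -2.54 in the first, -0.47, -0.49 and -0.13 in the second and -7.39, -6.55 and -5.88 in the third.

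PAB-H against Sham-H in the LV gave -1.28 ± 1.06 for Myl7, -1.29 ± 0.97 for Myl4 and -1.02 ± 0.96 for Sln (edgeR adjusted p of 0.957 for each). Myl7 was at -4.25 without PAB-H replicate 2 and at 0.26 without Sham-H replicate 6, both animals of opposite ventricle difference. Without the 3 such animals the changes were -2.71 ± 0.84, -2.51 ± 0.71 and -2.27 ± 0.68 (edgeR adjusted p of 0.750 for each). In the septum of PAB-H the changes were -2.26 ± 1.15, -1.94 ± 0.82 and -2.33 ± 1.03, with an adjusted p of 0.790 for each by edgeR, and they were -0.70 ± 0.78, -0.34 ± 0.41 and -0.20 ± 0.76 without the libraries rich in Mybphl. In the RV the loaded ventricle of PAB-H showed 0.69 ± 1.57 for Myl7, 0.75 ± 1.37 for Myl4 and 0.20 ± 1.40 for Sln, and leaving out PAB-H replicate 1 put Myl7 at -3.63 while leaving out Sham-H replicate 7 put it at 2.94. In both ventricles of PAB-H, leaving out 1 library thus reversed the direction of Myl7.

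In the septum of AOB-H animals, leaving out the libraries rich in Mybphl turned the direction. With all 7 and 7 libraries the changes were -2.20 ± 1.15 for Myl7, -1.77 ± 0.81 for Myl4 and -2.58 ± 1.05 for Sln (edgeR adjusted p of 0.334, 0.290 and 0.250). Without those libraries they were 1.43 ± 0.72, 0.89 ± 0.39 and 0.70 ± 0.71, with adjusted p of 0.593, 0.569 and 0.847 by the same test. Of the AOB-H septa kept in that fit, replicates 2 and 3 were highest, with Myl7 at 33.7 and 30.1 CPM and Myl4 at 16.6 and 18.1 CPM. In the RV of AOB-H the members gave 0.65 ± 1.57, 0.62 ± 1.37 and 0.37 ± 1.40, with Myl7 at -4.22 once AOB-H replicate 3 was left out and at 2.87 once Sham-H replicate 7 was.

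In the failing RV of PAB-F, described without a test, the members were higher than in Sham-RF by 3.91 ± 3.21 (Myl7), 5.14 ± 3.06 (Myl4) and 4.81 ± 3.07 (Sln) on the log2 scale. Without PAB-F replicate 3 these differences were -0.52, 0.71 and 0.58. The 2 other PAB-F animals held 31.4 and 2.12 CPM of Myl7, within or below the range of the 2 shams, and only replicate 2 exceeded them in Myl4, at 10.1 CPM. The ranges overlapped for all 4 members, and did not for 35.4% of genes. The change of the PAB response from compensation to failure was likewise 3.22 for Myl7 with all libraries and -1.20 without PAB-F replicate 3. In the LV of PAB-F, where no library was high, the changes were -1.13 ± 2.08, -0.38 ± 1.89 and -0.78 ± 2.01 (edgeR adjusted p of 1.000 for each). In the septum of PAB-F they were 0.85 ± 2.29, 0.67 ± 1.59 and 1.32 ± 2.23, with edgeR adjusted p of 0.932, 0.923 and 0.887, and Myl7 and Sln changed sign, to -0.41 and -0.49, without PAB-F replicate 3.

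In left heart failure the LV of AOB-F gave 2.38 ± 1.66 for Myl7, 3.09 ± 1.58 for Myl4 and 2.69 ± 1.57 for Sln against Sham-LF (edgeR adjusted p of 0.649, 0.422 and 0.524, n = 4 and 3). Without AOB-F replicate 4 the values were 0.03, 0.67 and 0.51. The AOB response from compensation to failure in the LV was 6.54 ± 2.17 for Myl7, 6.96 ± 2.02 for Myl4 and 6.32 ± 1.99 for Sln, with an edgeR adjusted p of 0.462 for each, and 0 of 4 members and 0% of genes were called. That contrast draws on both the high Sham-H libraries and AOB-F replicate 4, and without libraries rich in Mybphl it was 0.44 ± 1.21, 0.94 ± 0.68 and 0.80 ± 0.76. Myl7, Myl4 and Sln each had an unadjusted p under 0.05 there, as did 7.6% of genes, and without the animals of opposite ventricle difference the values were 4.82, 5.33 and 4.57 (edgeR adjusted p of 0.586 for each). In the AOB-F septum the members gave -0.64 ± 1.52, -0.09 ± 1.10 and -0.12 ± 1.33, and without Sham-LF replicate 1 they gave 2.51, 2.05 and 2.22.

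In the RV of AOB-F animals, Myl4 and Myl7 parted once the high libraries were left out. Myl4 differed by -0.03 ± 1.94 with all libraries (edgeR adjusted p of 0.996), since AOB-F replicate 2 and Sham-LF replicate 3 were both high. Without the libraries with 1 CPM or more of Mybphl, AOB-F replicates 1, 3 and 4 had 17.7, 20.9 and 16.0 CPM against 4.96 and 4.77 CPM in Sham-LF replicates 1 and 2. The difference was then 1.90 ± 0.60, with an unadjusted p of 0.00439 and an adjusted p of 0.0788 by edgeR, so that it did not pass the threshold. In these AOB-F libraries Mybphl was also higher, at 0.589, 0.946 and 0.704 CPM against 0.305 and 0.0822 CPM in those of Sham-LF. Its part in the Myl4 difference was not tested. Myl7 differed by -0.93 ± 1.20 and Sln by -0.82 ± 0.53 in the same libraries, with adjusted p of 0.629 and 0.306 by edgeR. Without these libraries, 0 members were called in the 15 comparisons of groups that were tested, against 9.33% of genes called in the AOB-F septum, 1.37% in the septum and 0.0172% in the RV of older against young shams, and 0% in the others.

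**Figure D4:**
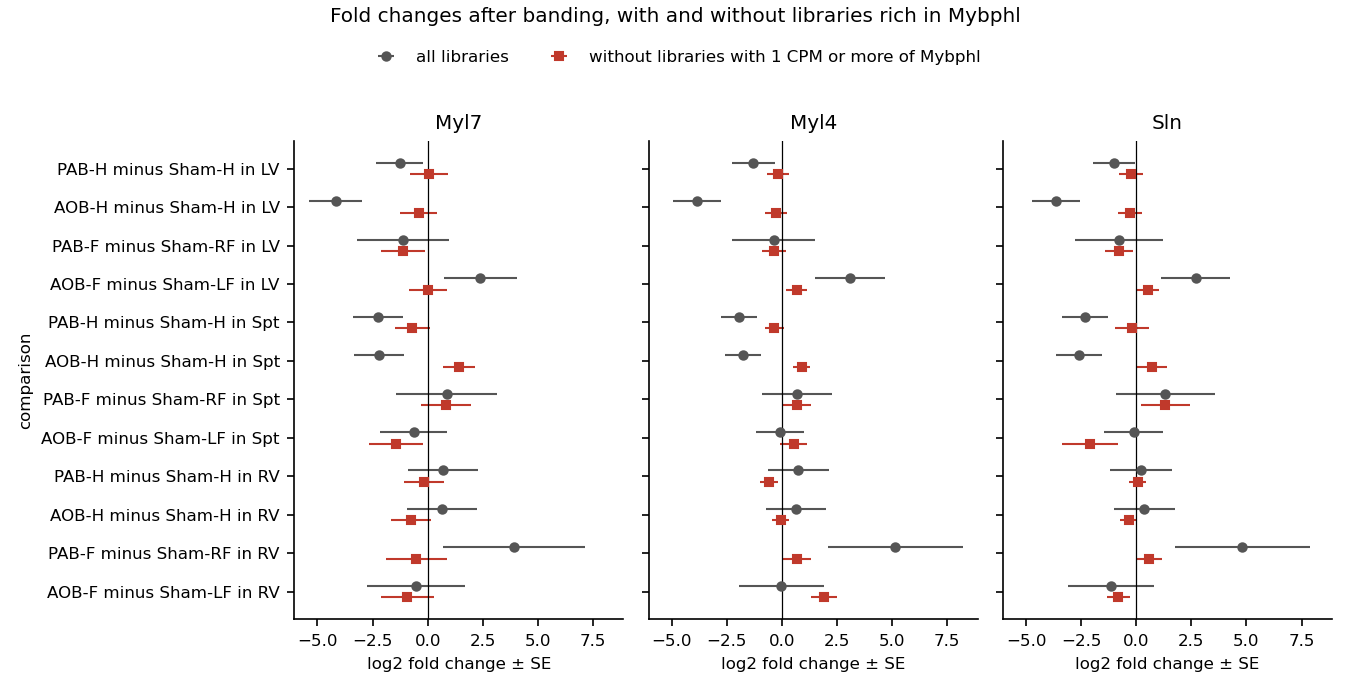
Log2 fold changes (points) with their standard errors (bars) for Myl7, Myl4 and Sln in the 12 banding comparisons (y axis), with all libraries (grey circles) and without libraries holding 1 CPM or more of Mybphl (red squares). The grey values range from -4.17 for Myl7 in the AOB-H LV to 5.14 for Myl4 in the PAB-F RV, and the red ones lie closer to 0 in both.

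Myl4 and the natriuretic peptide genes were followed together because Nppa is both an atrial gene and a gene of the loaded ventricle, whereas Nppb, encoding brain natriuretic peptide, serves here as the ventricular partner. Among the 76 libraries with Mybphl under 1 CPM, the log2 levels of Nppa and Nppb went together (r = 0.92, a description over libraries of which 3 share an animal). The 12 of these libraries with the most Nppa, all from banded animals, held 2765 to 17261 CPM of Nppa and 607 to 1340 CPM of Nppb. Their Myl4 spanned 5.30 to 18.1 CPM (median 10.8) against 1.49 to 20.9 CPM (median 4.27) in the other 64. Their Myl7 had a median of 5.08 CPM against 5.26 CPM, and Sln 1.57 CPM against 2.63 CPM. Myl4 exceeded Myl7 in 9 of these 12 libraries and in 25 of the other 64. Several of the 12 share a heart, such as the LV and RV of AOB-F replicate 1 and the septum and RV of PAB-F replicate 2. The counts are thus of libraries and not of animals.

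Single libraries out of those 12 are given as examples, and add nothing to the counts above. The LV of AOB-F replicate 1 had 17261 CPM of Nppa and 1323 CPM of Nppb with 12.0 CPM of Myl4 and 5.68 CPM of Myl7. The septum labelled as AOB-F replicate 1, one of the pair exchanged in the sample sheet, had 12.4 CPM of Myl4 and 3.07 CPM of Myl7, and the septum of AOB-F replicate 3 had 11.4 and 4.48 CPM. The RV of PAB-F replicate 2 had 5640 CPM of Nppa with 10.1 CPM of Myl4 and 2.12 CPM of Myl7. Over the 76 libraries the correlation of log2 levels with Nppa was 0.54 for Myl4, -0.04 for Myl7 and -0.09 for Sln, again as a description. In the same libraries Myl4 went with Mybphl at 0.65 and with Myl7 at 0.53, so it was not tied to Nppa alone.

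The 8 libraries with 1 CPM or more of Bmp10 lay elsewhere, with 1244 to 5285 CPM of Nppa but 104 to 591 CPM of Nppb. In 7 of them Nppb was between 104 and 240 CPM, and the highest Nppb was that of PAB-F replicate 3. In the RV of AOB-H replicate 3 Nppa was at 2578 CPM with 211 CPM of Nppb. The RV of PAB-F replicate 3 had 5285 CPM of Nppa and 591 CPM of Nppb, and its Nppa stood at 508 per 100 of Myl7 against 226 to 337 in the other 5 high RV libraries. The LV of AOB-F replicate 4 had 15923 CPM of Nppa and 1186 CPM of Nppb with 264 CPM of Myl7, so that Nppa stood at 6027 per 100 of Myl7 there. High Myl7 and high Nppb thus occurred in the same library in some failing hearts, and in the other high RV libraries Nppa was high while Nppb was not.

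**Figure D5:**
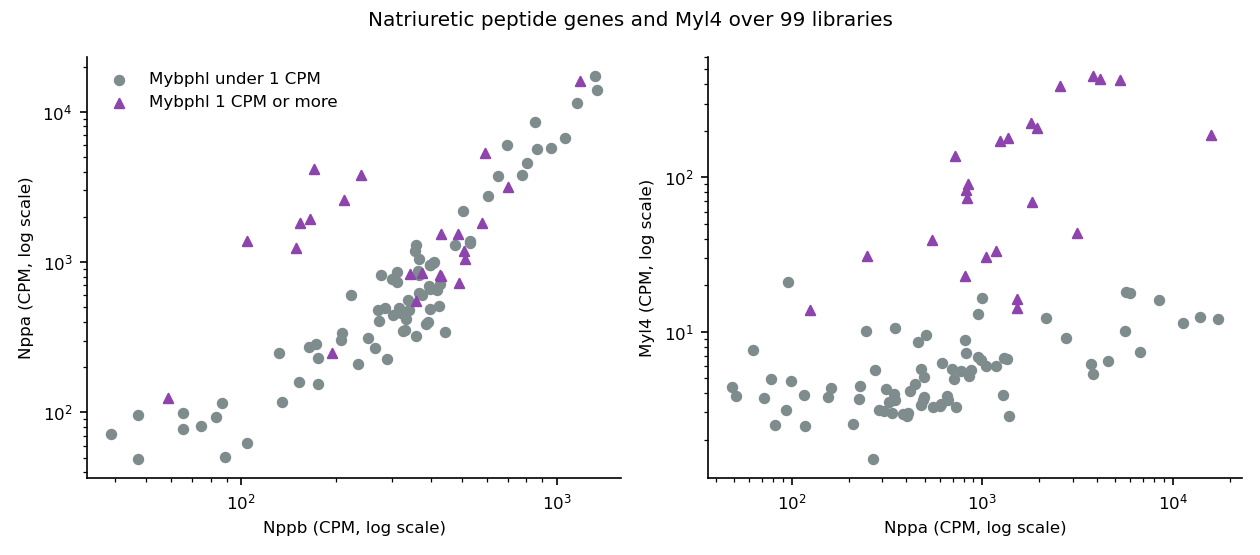
Nppa against Nppb (left) and Myl4 against Nppa (right) in each of the 99 libraries (CPM, log axes), with grey circles for the 76 libraries under 1 CPM of Mybphl and purple triangles for the 23 others. The circles follow 1 line for Nppa and Nppb, several triangles lie above it, and in the right panel the circles with the most Nppa reach 18.1 CPM of Myl4 while most triangles lie above them.

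Over the 99 libraries, the genes most like each member (Pearson's r of log2(CPM + 0.5), up to 5 genes a member) were largely the same few. For Myl7 they were Sln (r = 0.93), Myl4 (0.90), Mybphl (0.90), Rab15 (0.85) and Atp1b4 (0.79). For Myl4 they were Mybphl (0.96), Sln (0.90), Myl7 (0.90), Atp1b4 (0.89) and Hamp (0.88), and for Sln they were Mybphl (0.95), Myl7 (0.93), Myl4 (0.90), Atp1b4 (0.86) and Rab15 (0.85). Genes like Bmp10 included Atp1b4 (0.91), Mybphl (0.83), Clec4f (0.78) and Sln (0.75). Libraries share animals and series, and a few libraries with high values set these correlations: without the 16 libraries that stood apart, r fell from 0.90 to 0.67 for Myl7 with Myl4 and from 0.93 to 0.77 for Myl7 with Sln. For Bmp10 with Myl4 it fell from 0.74 to 0.08. Hamp, encoding the iron-regulating peptide hepcidin, had a median of 42.1 CPM in the 16 libraries and 6.15 CPM in the others.

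Age and chamber were compared in the sham animals. In the LV, older shams had lower levels than young ones by -4.19 ± 1.39 for Myl7, -3.91 ± 1.26 for Myl4 and -3.82 ± 1.26 for Sln on the log2 scale (edgeR adjusted p of 0.417, 0.391 and 0.407). No member was called, of 0.0171% of genes called in the LV, although Myl7, Myl4 and Sln each had an unadjusted p under 0.05 (6.85% of all genes did). Without the animals of opposite ventricle difference, here Sham-H replicate 6, the changes were -2.65, -2.29 and -2.13, and without libraries rich in Mybphl the changes were 0.10, 0.04 and -0.11. All older sham LV libraries were of the second library series, whereas young ones came from each series. Within the second series the LV changes were -1.27 ± 1.00, -0.97 ± 0.88 and -0.84 ± 0.85. The part of age and of series was not tested. In the septum and RV, 0 of 4 members were called, against 1.18% and 0.0937% of genes. There 0 of Myl7, Myl4 and Sln had an unadjusted p under 0.05, against 18.5% and 11.7% of genes. DESeq2 called none in the LV or septum and gave no adjusted p for the members in the RV. The young Sham-H libraries labelled LV, with medians of 94.4, 30.5 and 16.1 CPM for Myl7, Myl4 and Sln, had medians above those of every other group in any chamber.

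Most sham septa, and all older ones, belonged to the third library series, and most sham LV and RV libraries to the first or second. The fits of chambers had no term for series, so differences of the septum cannot be told apart from those of series. Between chambers of the 12 sham animals, 3 members were tested, since Bmp10 did not pass the filter there. None was called in the RV against the LV (8.85% of 11212 genes called), the septum against the LV (1.84%) or the septum against the RV (7.92%), and DESeq2 called none. None had an unadjusted p under 0.05, which 25.9%, 13.8% and 20.3% of genes had. In the septum Myl7 was lower than in the RV by -1.14 ± 0.95 and Sln by -1.37 ± 0.91 (edgeR adjusted p of 0.553 and 0.435). Without the libraries rich in Mybphl, Myl7 was lower by -1.94 ± 0.54 and Sln by -1.21 ± 0.30, with adjusted p of 0.0232 and 0.0142 by edgeR, where 13.5% of genes were called. That fit did not use the pairing of chambers within an animal, and with the animal as a replicate block the changes were -1.56 ± 0.66 and -1.16 ± 0.37, with adjusted p of 0.156 and 0.0786 by edgeR, so neither call held. Myl4 differed by -0.00 ± 0.25. In the same libraries 0 members were called in the RV against the LV (30.9% of genes called) or the septum against the LV (0.116%). Leaving out libraries by Myl7 itself also gave calls for both genes in the septum against the RV (11.1% of genes called), and for Sln against the LV (-1.83 ± 0.47, adjusted p of 0.0321 by edgeR, with 3.16% of genes called), but for Myl7 such a choice is circular and with the replicate block 0 members were called (lowest edgeR adjusted p 0.0753).

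No gene of the members' partner lists passed the test after banding, and few genes of any kind did. The share over all genes tested was 0.837% in the AOB-F LV, 0.232% in the AOB-F septum and 0% in each of the other banding comparisons. The counts of 0 below therefore do not set these lists apart from other genes. Of the myosin light chain and kinase list (5 of 6 genes tested), 0 were called in the 12 banding comparisons, and between sham chambers Myl1 was higher in the septum than in the LV (1.24 ± 0.34, edgeR adjusted p of 0.0446). Of the 5 sarcolipin partners, which include the calcium pump gene Atp2a2 and the phospholamban gene Pln, 0 were called after banding, and Pln was higher in the sham RV than LV by 0.19 ± 0.05 (edgeR adjusted p of 0.0236). Of the BMP10 partners and targets, of which 9 of 10 were tested in the LV and septum and 8 in the RV, 0 were called after banding. The receptor genes Eng and Acvrl1 were called in shams alone, Eng higher in the older septum (0.49 ± 0.12, edgeR adjusted p of 0.0442) and Acvrl1 lower in the RV than in the LV (-0.26 ± 0.08, edgeR adjusted p of 0.0368). Of the 15 other atrial genes, 1 was called after banding, Nppa in the AOB-F LV (3.73 ± 0.93, edgeR adjusted p of 0.0472), where Nppa was 3.38 ± 0.89 with an adjusted p of 0.383 by edgeR once libraries rich in Mybphl, in that group replicate 4, were left out.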

How the data were processed

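RV, septum and LV of 33 rats gave 99 poly(A)-selected, strand-marking libraries (75-bp single-end reads per the study's methods). Per the labels the authors trimmed reads with Trim Galore, aligned them with STAR to Rnor6.0 and counted them per gene with featureCounts, and per the study's methods multiple overlaps were disabled. The strand setting is not given in the sources used here. The deposited table holds raw counts, counts divided by DESeq2 size factors (a normalized signal, by the authors) and FPKM by the authors, and 0 columns were left unmapped. Counts were used for all tests, FPKM for levels between genes, and the deposited normalized signal only to check that it equals counts over a size factor.

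Groups and pairs followed the labels. Per chamber, all 7 groups entered 1 edgeR 4.0.16 quasi-likelihood fit (TMM, filterByExpr, no covariate, R 4.3.3), and 36 sham libraries entered a fit of chambers. DESeq2 1.42.0 was an alternative. Adjusted p-values cover all genes tested, with a threshold of 0.05. The scripts were tested on simulated data with 200 changed genes. A replicate is 1 animal, and 228 pairs of replicates all differed beyond counting noise (chi-square per gene of 3.67 or more).

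The members and gene lists were chosen with earlier results of these data known. Named genes were the 4 members, list genes as counts with values for those called or discussed, and the 5 genes most like each member, of which 1 is not reported here. In the sham chamber comparisons, libraries of the same animal are paired by the labels, and their deviations from group means correlated over 0.1 in 8 of 12 animals for LV and RV, 6 of 12 for LV and septum and 7 of 12 for septum and RV. No human sample was used.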

Additional observations from a re-analysis of the deposited data

Results flagged for a closer look

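Within groups of 4 to 10 animals, 22 library values in 47 tests (1 gene in 1 group of 1 chamber, log2(CPM + 0.5)) lay farther from their group than Dixon's 95% critical value allows, all as the highest of their group. Chance alone gives about 1 in 20 for independent tests of normally spread values, a rate that does not hold for these tests as a set. Bmp10 had no count in most libraries, and Myl7, Myl4 and Sln flagged several of the same libraries.

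For Myl7 these were the LV of PAB-H replicate 2 (552 CPM, next 23.6 CPM), the septum of PAB-H replicate 1 (84.5 CPM, next 6.06 CPM) and the RV of AOB-H replicate 3 (1075 CPM, next 17.5 CPM). For Myl4 they were the LV of PAB-H replicate 2 (225 CPM), the septum of PAB-H replicate 1 (39.4 CPM), and the RV of PAB-H replicate 1 (452 CPM), AOB-H replicate 3 (388 CPM) and AOB-F replicate 2 (180 CPM). For Sln they were the LV of PAB-H replicate 2 (148 CPM), the septum of PAB-H replicate 1 (16.0 CPM), and the RV of PAB-H replicate 1 (224 CPM) and AOB-H replicate 3 (249 CPM).

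Bmp10 gave 10 such values. Those above 1 CPM were the library labelled LV of Sham-H replicate 6 (42.9 CPM), the library labelled LV of PAB-H replicate 2 (4.59 CPM), and the RV of Sham-H replicate 7 (20.0 CPM), PAB-H replicate 1 (6.94 CPM), AOB-H replicate 3 (11.1 CPM) and AOB-F replicate 2 (5.55 CPM). Those below 1 CPM were the septum of Sham-H replicate 2 (0.566 CPM) and AOB-F replicate 2 (0.868 CPM), and the LV of AOB-F replicate 2 (0.122 CPM) and septum of AOB-H replicate 4 (0.0465 CPM), which are a few counts in groups otherwise at 0.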

How the results depend on the processing

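The number of members called was 0 in each of the 18 comparisons tested (PAB-F against Sham-RF and the PAB response in the RV are left out) and stayed 0 in 405 of 408 alternatives (RLE scaling, no low-count filter, library series as a covariate or analysed alone, only the groups compared, 1 fit over 99 libraries, DESeq2, leaving out each replicate, the animals of opposite ventricle difference, or the libraries high in Myl7 or, chosen after seeing the data, in Mybphl). The 3 others were 1 in the septum against the LV and 2 in the septum against the RV of shams without libraries over 10 times the median of Myl7, and 2 in the septum against the RV without libraries with 1 CPM or more of Mybphl. With the replicate block added to those exclusions (chosen after seeing the data), 0 members were called. With the replicate block over all libraries, 0 members were called in each comparison. The numbers do not pair the banding groups (34 of 57 same-numbered pairs correlated over 0.1, from -0.39 to 0.85), and no block over all libraries changed a call of a member. For the groups of the RV, DESeq2 gave no adjusted p for any member, so those alternatives could not have called one. Fold changes of Myl7, Myl4 and Sln took the opposite sign in 136 of 1362 alternatives and moved by more than their standard error in 208.

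Counts over all genes varied more than 1.5-fold. The AOB-F LV count was 98, with 0 within the second library series and 366 with series as a covariate, and the AOB-F septum count was 27, with 0 using only the groups compared and 1118 without libraries over 10 times the median of Myl7. The RV against LV count in shams was 992 and reached 3463 without libraries rich in Mybphl. In older against young shams it was 2 (LV, 0 to 783), 137 (septum, 1 to 312) and 11 (RV, 0 to 229). Depth limits Bmp10 to levels above 0.124 to 0.249 CPM.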
